A study of Homo sapiens with 24 samples.

Results

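The genes described here are 10 genes of activin and TGF-beta signalling: INHBA, TGFB1, TGFB2, FST, LTBP2, TGFBR2, SMAD3, SMAD7, SKIL and TGFBI. They are the rows of the gene count table whose Ensembl identifier, with its version removed, maps to those symbols, and each symbol matched 1 row. The table held 60668 rows, of which 22158 passed a filter on low counts and were tested. All 10 genes passed that filter, TGFB2 with 12 to 84 counts per library and FST with as few as 5.

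Activins and TGF-betas are secreted dimers that bring type II and type I serine/threonine kinase receptors together on the cell surface. The activated receptors phosphorylate SMAD2 and SMAD3, which join SMAD4, enter the nucleus and change transcription, while SMAD7 and the co-repressor encoded by SKIL restrain the signal and are themselves induced by it. In normal mammary epithelium TGF-beta is best known for slowing proliferation and for inducing extracellular matrix and mesenchymal genes.

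MCF-10A is an immortalised mammary epithelial line of human origin that does not form tumours. RNA came from the parental line and from a derivative with MYC-ER, in which the transcription factor MYC is joined to an oestrogen receptor's ligand-binding region. The fusion is activated by 4-hydroxytamoxifen (4-OHT). Both lines were grown in Matrigel as 3D cultures, received 1 µM 4-OHT for 0, 8, 24 or 48 h and were harvested together on day 5, so that exposure time varied at a fixed culture age. The labels give 3 replicates of each of the 8 groups of line and exposure time. All groups carry the MCF-10A background, and the parental groups lack the fusion but received the same 4-OHT. Whether the 0 h groups received vehicle, which promoter drives MYC-ER and whether the line is 1 clone or a pool are not given in the sources used here, and at 0 h the fusion and the derivation of the line cannot be told apart. Wells were seeded in triplicate, and nothing states that replicates came from separate cultures, so p-values measure the spread between these samples, which may be technical.

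The 3 ligand genes rose together in MYC-ER cells at 8 h, and their promoters are shown for that reason. Each line gives the 250 bases before the RefSeq start (GRCh38.p14), 5′ to 3′ on the gene's strand, with the matches to the searched motifs in capitals.
INHBA, chr7:41703091-41703340, minus strand: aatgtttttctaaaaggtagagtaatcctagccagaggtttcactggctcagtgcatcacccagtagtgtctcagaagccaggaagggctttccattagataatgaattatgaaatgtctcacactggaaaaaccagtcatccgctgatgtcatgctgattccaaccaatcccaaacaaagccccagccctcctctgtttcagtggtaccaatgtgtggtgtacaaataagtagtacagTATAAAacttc
TGFB1, chr19:41353923-41354172, minus strand: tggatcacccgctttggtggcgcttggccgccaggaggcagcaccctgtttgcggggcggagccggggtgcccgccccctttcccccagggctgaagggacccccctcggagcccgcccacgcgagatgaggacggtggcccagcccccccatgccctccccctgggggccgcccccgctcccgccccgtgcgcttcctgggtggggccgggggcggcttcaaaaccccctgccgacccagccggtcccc
TGFB2, chr1:218345086-218345335, plus strand: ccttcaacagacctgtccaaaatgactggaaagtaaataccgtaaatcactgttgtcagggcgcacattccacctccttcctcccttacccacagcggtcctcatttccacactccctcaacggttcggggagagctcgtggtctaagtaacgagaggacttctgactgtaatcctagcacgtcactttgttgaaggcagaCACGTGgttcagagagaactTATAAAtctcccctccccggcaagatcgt
The INHBA window lay inside the longer INHBA gene of GENCODE 29, with 18 of its 250 bases in an annotated exon, whereas the TGFB1 and TGFB2 windows lay outside their GENCODE genes. Base composition differed between them, with 42.8% G and C before INHBA, 76.8% before TGFB1 and 50.4% before TGFB2.

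Motifs were searched on both strands of windows that add the 50 bases after each start, and all 10 genes had at least 1 such window. A TATA box (TATAAA) began 11 bases before the INHBA start 29 bases before the TGFB2 start and 35 bases before 1 of the SMAD7 starts, and 11.5% of all 35116 RefSeq windows hold that motif. An E-box, CACGTG, the sequence that MYC and related factors bind, began 49 bases before the TGFB2 start and 173 bases before 1 of the SMAD3 starts, against 7.26% of all windows. The TGFB1 window held none of the letters searched. SKIL had a cyclic AMP response element, TGACGTCA, 54 bases before its start (1.85% of all windows). An AP-1 site, TGACTCA, lay 6 bases before 1 TGFBR2 start and 56 bases before 1 SMAD3 start (4.95% of all windows). No window of the 10 genes held the SMAD palindrome GTCTAGAC (0.202% of all windows) or the CAGA box AGCCAGACA (0.288%). These motifs do not overlap one another in the windows printed, and a match describes letters, not binding.

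Library totals ran from 136860029 to 182438505 counts, so 3 counts, the limit that a count of 0 allows, equal 0.0164 to 0.0217 CPM, the count scaled by library total times its TMM factor. Such limits cover counting error only. In MYC-ER cells the level of MYC was 387 ± 7.89 CPM at 0 h, 795 ± 1.79 after 8 h, 321 ± 8.87 after 24 h and 248 ± 4.80 after 48 h (SD, n = 3), and the parental group means were 463 to 532 CPM. These counts do not tell endogenous MYC from the MYC part of the fusion. ESR1, the oestrogen receptor gene, had means of 0.513, 0.0118, 0.184 and 0.353 CPM at 0, 8, 24 and 48 h in MYC-ER cells. Its parental means were 0.144 to 0.239 CPM. The mitochondrial share was 3.86% in parental 0 h replicate 1, against 7.28% and 7.03% in the other replicates of that group and up to 9.71% in MYC-ER cells at 0 h. No marker of the basal epithelial list was at 0 in any library, and KRT5 stood at 6765 to 14115 CPM. KRT14 ranged more widely, from 603 to 10872 CPM, as did KRT17, from 313 to 3440.5. TP63 was at 76.8 to 169 CPM, ITGB4 at 640 to 1981 and CDH3 at 331 to 444. In MYC-ER cells the summed level of 6 basal markers at 0, 8, 24 and 48 h was 14501–14967, 14232–16038, 10517–10944 and 10380–11041 CPM. That of 6 luminal markers was 291–318, 709–745, 493–505 and 541–566 CPM. Over all libraries KRT18 ran from 91.2 to 520 CPM, KRT8 from 40.6 to 227, EPCAM from 1.73 to 77.8 and MUC1 from 24.9 to 74.1. GATA3 was at 8.32 to 19.5 CPM and KRT19 at 0 to 13.1. In parental cells the basal sum was 18115 to 29552 CPM and the luminal sum 288 to 479. Of 7 fibroblast markers COL1A1 was at 53.5 to 220 CPM, PDGFRB at 0.463 to 1.65 and LUM at up to 0.304, while COL1A2, COL3A1, PDGFRA and THY1 reached at most 0.0617 CPM. Of 3 endothelial markers CDH5 had no count in any library, VWF reached 0.125 CPM and PECAM1 2.32. Of 4 immune markers CD3E had no count in any library, PTPRC had at most 2 counts and LYZ at most 10, while CD14 was at 2.87 to 9.03 CPM. The part of these markers in the results was not tested. In bulk RNA, fewer cells that express a gene and less of its RNA per cell cannot be told apart.

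In MYC-ER cells given 4-OHT for 8 h nearly all of these genes changed, upwards for the ligand genes and downwards for the receptor gene TGFBR2 and the matrix gene TGFBI. The change of the inhibitory SMAD7, -0.19 on the log2 scale, passed narrowly and was lost in several other fits. It was also -0.19 in parental cells, where it did not pass. At 8 h against 0 h in MYC-ER cells, 6 of the 10 genes rose (INHBA, TGFB1, TGFB2, LTBP2, SMAD3 and SKIL) and 3 fell (TGFBR2, SMAD7 and TGFBI), where 32.2% of all tested genes rose and 35.4% fell. At 24 h 5 rose and 4 fell, with SMAD3 now among those lower (30.4% and 31.2% of all genes). At 48 h 6 rose, among them FST, and 3 fell (23.4% and 20.7% of all genes). Calls are edgeR's quasi-likelihood test at an adjusted p of 0.05. With counts scaled by library size alone, the share of rises among the calls over all genes at 48 h went from 53.0% to 73.8%. The median log2 change of the 10 genes was 0.49, 0.24 and 0.35 after 8, 24 and 48 h, against -0.10, -0.02 and 0.03 over all tested genes.

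In parental cells, which lack the fusion, INHBA had the largest change among the 10 genes at each exposure time. At 8 h 5 rose (INHBA, LTBP2, TGFBR2, SMAD3 and SKIL) and TGFB1 fell, against 15.0% and 16.0% of all genes. At 24 h 6 rose and 3 fell, where 21.2% of all genes rose and 21.7% fell. At 48 h 5 rose and 2 fell (20.4% and 20.1% of all genes). The count at 8 h rested on the parental 0 h libraries: 2 genes passed without replicate 3 of that group, 3 without replicate 1 and 3 without parental 8 h replicate 1. With only the groups compared in the fit, 2 genes passed at 8 h and 5 at 24 h. The calls lost were those of TGFB1, LTBP2, TGFBR2 and SKIL at 8 h, of TGFB1, TGFB2, SMAD7 and TGFBI at 24 h, and of TGFB1 and TGFBI at 48 h. The 3 comparisons within a line share their 0 h libraries.

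The lines already differed at 0 h. At 0 h MYC-ER cells exceeded parental cells in 2 of the 10 genes (TGFBR2 and TGFBI) and were below them in 6 (INHBA, TGFB1, FST, LTBP2, SMAD7 and SKIL), where 31.6% of all genes were higher and 32.7% lower. TGFB2 differed by 0.09 on the log2 scale with a 95% interval of -0.64 to 0.82, and SMAD3 by 0.06 with an interval of -0.06 to 0.18. After 8 h 4 genes were higher and 4 lower (23.1% and 25.5% of all genes). After 24 h 1 was higher and 7 lower (23.5% and 25.8%), and after 48 h 1 was higher and 8 lower (27.3% and 29.4%). For these last comparisons the share of higher values among all calls depended on scaling: at 24 h it was 47.6%, against 60.7% with library size alone and 58.4% with upper-quartile scaling, and at 48 h 48.2% against 59.8% and 59.7%.

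A line by time interaction, the change in MYC-ER cells less that in parental cells, tests whether the lines responded differently. It passed for 6 of the 10 genes at 8 h (55.2% of all genes), for 6 at 24 h (54.5%) and for 7 at 48 h (45.0%). TGFB1, TGFBR2, SMAD3 and TGFBI passed at all 3 times, while TGFB2 and FST passed at none. At 48 h the share of positive interactions among all calls was 52.5%, or 63.5% with library size alone.

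**Figure D1:**
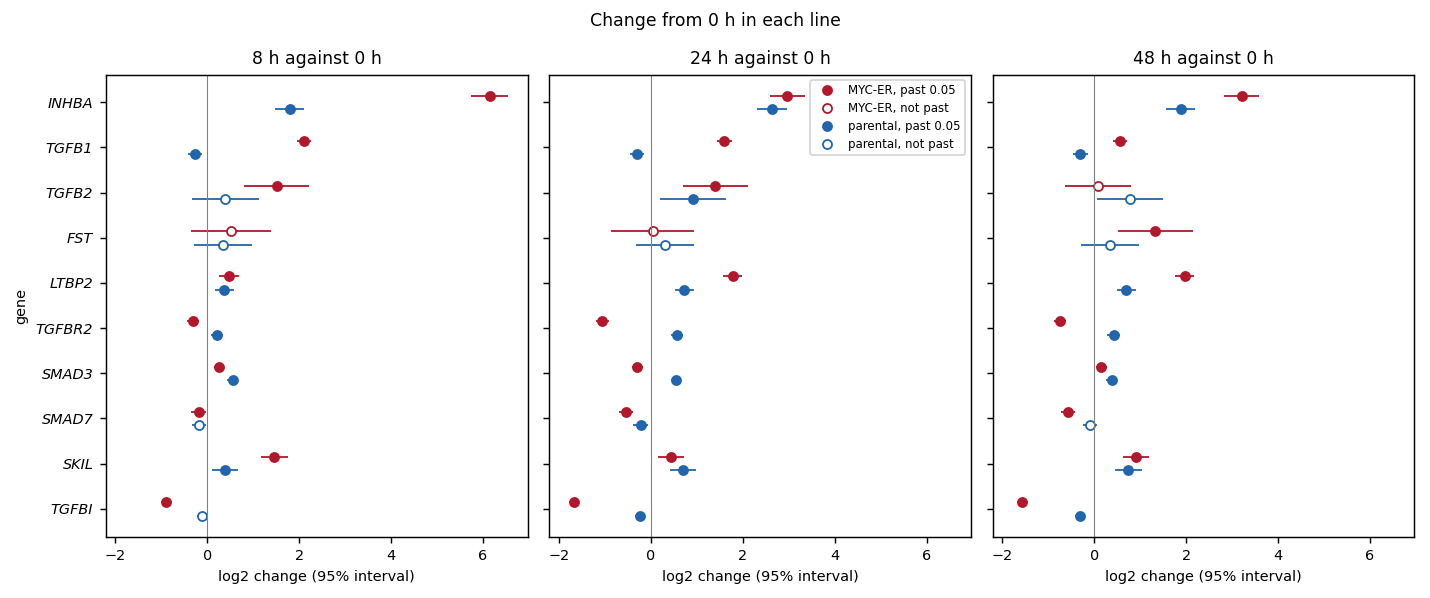
Log2 change from 0 h at 8, 24 and 48 h of 4-OHT for the 10 genes (x axis, with 95% intervals), in MYC-ER (red) and parental (blue) cells; filled points passed an adjusted p of 0.05. INHBA in MYC-ER cells at 8 h lies farthest to the right at 6.15, TGFB1 is above 0 in MYC-ER and below 0 in parental cells, and TGFBR2 is below 0 in MYC-ER and above 0 in parental cells.

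INHBA (ENSG00000122641.11, chr7:41667168-41705834, minus strand, GRCh38) encodes the beta A subunit, which dimerises into activin A. In MYC-ER cells its level was 0.365, 0.295 and 0.432 CPM at 0 h, 26.2, 25.9 and 25.4 at 8 h, 3.49, 2.83 and 2.25 at 24 h, and 3.36, 3.35 and 3.39 at 48 h. The 8 h libraries stood far above all other MYC-ER libraries, and the later ones stayed above 0 h without overlap. The rise was 6.15 on the log2 scale at 8 h (edgeR adjusted p 1.16e-16, SE 0.21), a 70.8-fold difference. It stood at 2.97 at 24 h (adjusted p 1.42e-11, SE 0.20) and 3.21 at 48 h (adjusted p 1.29e-11, SE 0.20). Between 8 and 24 h INHBA fell by 3.17 (adjusted p 7.18e-13), and from 24 to 48 h the difference of 0.24 had a 95% interval of -0.09 to 0.56.

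Parental cells held more INHBA RNA at the start and gained it more slowly. Their level was 5.10, 6.06 and 3.63 CPM at 0 h, 14.8, 15.8 and 20.7 at 8 h, 32.2, 29.9 and 30.4 at 24 h, and 18.9, 19.4 and 16.1 at 48 h. Each exposed group lay above 0 h without overlap, and 24 h was the highest of all 8 groups. The parental changes were 1.79 at 8 h (adjusted p 1.66e-07, SE 0.16), 2.64 at 24 h (adjusted p 1.45e-09, SE 0.17) and 1.88 at 48 h (adjusted p 2.71e-07, SE 0.16). At 0 h MYC-ER cells had 13.5-fold less INHBA than parental cells (log2 difference -3.76, adjusted p 2.77e-13), and at 8 h 1.51-fold more (0.59, adjusted p 0.00306). After 24 h they were again 10.8-fold lower and after 48 h 5.38-fold lower (adjusted p 4.52e-13 and 4.97e-11).

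The INHBA response differed between the lines at 8 h, by 4.35 on the log2 scale (adjusted p 2.90e-12, SE 0.25), and at 48 h, by 1.33 (adjusted p 0.000187). At 24 h the interaction was 0.33, with a 95% interval of -0.16 to 0.82. It passed the threshold once each library's trend with GC content was removed (0.62, adjusted p 0.0253) or with GC content and length (0.79, adjusted p 0.00444). Over the 8 groups INHBA spanned 84.6-fold.

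**Figure D2:**
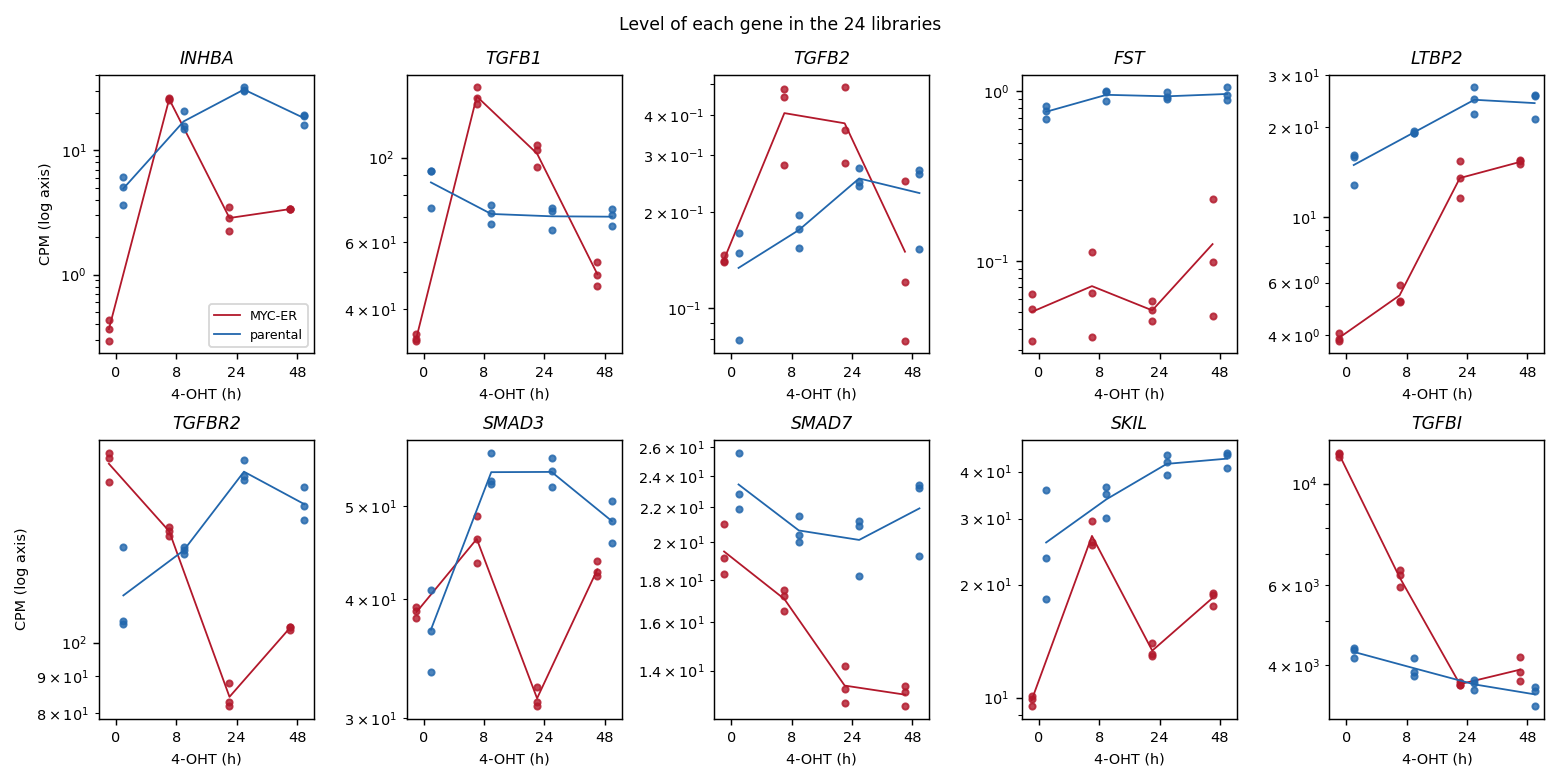
CPM of each gene in every library (y axes logarithmic and different for each gene) against hours of 4-OHT, for MYC-ER (red) and parental (blue) cells; points are libraries and lines join group means. INHBA peaks at 8 h in MYC-ER cells at 25.4 to 26.2 CPM and falls back, while parental INHBA is highest at 24 h.

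TGFB1 (ENSG00000105329.10, chr19:41301587-41353911, minus strand, GRCh38), the main TGF-beta ligand of most epithelia, followed the same early course in MYC-ER cells with a smaller amplitude. Its MYC-ER level was 34.5, 33.1 and 33.5 CPM at 0 h, 143, 138 and 153 at 8 h, 108, 105 and 94.3 at 24 h, and 53.1, 49.3 and 45.9 at 48 h. No 2 of these groups overlapped. The change from 0 h was 2.1 at 8 h (edgeR adjusted p 1.78e-15, SE 0.083), 1.60 at 24 h (adjusted p 1.74e-13, SE 0.082) and 0.55 at 48 h (adjusted p 7.30e-06, SE 0.081). Parental cells held 92.3, 73.6 and 92.3 CPM at 0 h, 66.9, 71.4 and 75.1 at 8 h, 72.2, 64.5 and 73.7 at 24 h, and 66.1, 73.1 and 70.7 at 48 h. Replicate 2 at 0 h lay among the exposed libraries and the other 0 h replicates above them.

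The parental TGFB1 changes of -0.27, -0.30 and -0.30 at 8, 24 and 48 h passed the threshold (adjusted p 0.0127, 0.00466 and 0.00468) but not once the GC trend was removed. The TGFB1 transcript has 63.5% G and C, the highest of the 10 genes, and the values were then 0.01, 0.10 and 0.06 (adjusted p 0.869, 0.103 and 0.313). The 8 h call was also lost when replicate 1 of parental 0 h was left out (-0.22, adjusted p 0.0772), as it was for replicate 3 of that group (-0.21, adjusted p 0.0793) or replicate 1 of parental 8 h (-0.21, adjusted p 0.0815). Without parental 0 h replicate 3 the 48 h call was lost as well (-0.21, adjusted p 0.0569). The lines differed in response, with interactions of 2.38 at 8 h (adjusted p 1.72e-13, SE 0.11), 1.90 at 24 h and 0.85 at 48 h, or 2.03, 1.63 and 0.54 with the GC trend removed. At 0 h MYC-ER cells had 2.55-fold less TGFB1 than parental cells, at 8 h 2.03-fold more, at 24 h 1.46-fold more and at 48 h 1.41-fold less. TGFB1 shares 215 exon bases with HNRNPUL1 on the opposite strand (31361 to 51929 counts), and whether the counting used the strand that the library kit records is not given in the sources used here.

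TGFB2 (ENSG00000092969.12, chr1:218346235-218444619, plus strand, GRCh38), another TGF-beta ligand, was detected at a very low level in both lines. In MYC-ER cells it had 24, 26 and 24 counts at 0 h, 63, 68 and 42 at 8 h, 84, 45 and 56 at 24 h, and 21, 12 and 42 at 48 h. Counts at 8 and 24 h lay above those at 0 h, while the 48 h libraries fell on both sides. The log2 change was 1.51 at 8 h (adjusted p 0.000969, SE 0.36), 1.40 at 24 h (adjusted p 0.00197, SE 0.36) and 0.08 at 48 h (95% interval -0.64 to 0.81). From 24 to 48 h TGFB2 fell by 1.32 (adjusted p 0.00383).

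Parental TGFB2 had 13, 26 and 29 counts at 0 h, 30, 28 and 25 at 8 h, 40, 37 and 44 at 24 h, and 48, 24 and 39 at 48 h. The 24 h libraries alone cleared the 0 h range, and their rise of 0.92 sat at the threshold (adjusted p 0.0475, SE 0.37). That call was lost in 17 of the 24 fits that each left out 1 library, among them the fit without parental 0 h replicate 1 (0.66, adjusted p 0.206). Removing the GC trend also ended it (0.57, adjusted p 0.237). The 8 h interaction of 1.12 did not pass (95% interval 0.10 to 2.13, adjusted p 0.0742). It passed after removal of the GC trend (1.32, adjusted p 0.0312) and without MYC-ER 8 h replicate 3 (1.33, adjusted p 0.0423), MYC-ER 48 h replicate 3 (1.12, adjusted p 0.0422) or parental 0 h replicate 1 (1.38, adjusted p 0.0306). Without MYC-ER 48 h replicate 3 the 48 h interaction of -0.69 also passed, at -1.27 (adjusted p 0.0445). TGFB2 shares 1371 exon bases with TGFB2-OT1 on the same strand, which had 1 to 12 counts.

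Per kilobase of the longest transcript the 3 ligand genes stood far apart. In MYC-ER cells at 8 h TGFB1 had a level of 52.2 CPM per kb, INHBA 4.25 and TGFB2 0.0804. At 0 h the corresponding levels were 12.2, 0.0600 and 0.0282 CPM per kb. In parental cells at 24 h, where INHBA was highest, they were 25.3, 5.08 and 0.0503 CPM per kb.

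FST (ENSG00000134363.12, chr5:53480409-53487134, plus strand, GRCh38) encodes follistatin, a secreted protein that binds activin and keeps it from its receptors. MYC-ER cells had 9, 6 and 11 FST counts at 0 h, 9, 5 and 17 at 8 h, 10, 7 and 8 at 24 h, and 40, 15 and 8 at 48 h. Parental cells had 134, 134 and 116 counts at 0 h, 154, 139 and 160 at 8 h, 149, 148 and 148 at 24 h, and 173, 166 and 129 at 48 h. Every parental library exceeded every MYC-ER library. MYC-ER cells were lower by 3.90 on the log2 scale at 0 h (15.0-fold, adjusted p 1.78e-08), and the difference was -3.72, -4.17 and -2.93 after 8, 24 and 48 h. Without MYC-ER 48 h replicate 1 the 48 h difference was -3.72.

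The FST rise in MYC-ER cells at 48 h, 1.32 on the log2 scale (adjusted p 0.0128, SE 0.42), came with overlapping replicates and depended on 1 library. Without MYC-ER 48 h replicate 1, the library with 40 counts, it was 0.53 (adjusted p 0.335), and without MYC-ER 0 h replicate 2 it was 1.11 (adjusted p 0.0661). With only the groups compared the adjusted p was 0.0953. The change from 24 to 48 h, 1.29 (adjusted p 0.0125), was 0.50 without MYC-ER 48 h replicate 1 (adjusted p 0.347). No other FST change from 0 h passed: the MYC-ER values were 0.51 at 8 h (95% interval -0.36 to 1.39) and 0.04 at 24 h (-0.86 to 0.93), and the parental values 0.33, 0.30 and 0.35, each with an interval that includes 0. The 48 h interaction of 0.98 did not pass (adjusted p 0.139) and ranged from 0.19 without MYC-ER 48 h replicate 1 (adjusted p 0.791) to 1.37 without MYC-ER 48 h replicate 3 (adjusted p 0.0182).

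LTBP2 (ENSG00000119681.12, chr14:74498170-74612378, minus strand, GRCh38) encodes a matrix protein of the latent TGF-beta binding protein family. Storage of TGF-beta was not measured. Its MYC-ER level was 3.83, 3.87 and 4.05 CPM at 0 h, 5.22, 5.91 and 5.18 at 8 h, 15.4, 13.5 and 11.6 at 24 h, and 15.0, 15.5 and 15.4 at 48 h. In parental cells it was 15.9, 16.1 and 12.8 CPM at 0 h, 19.2, 19.1 and 19.4 at 8 h, 24.9, 22.1 and 27.3 at 24 h, and 21.3, 25.5 and 25.6 at 48 h. Both lines rose without overlap with their own 0 h libraries, and MYC-ER cells ended where parental cells began. The MYC-ER changes were 0.47 at 8 h (edgeR adjusted p 0.000486, SE 0.11), 1.78 at 24 h (adjusted p 2.59e-12, SE 0.11) and 1.97 at 48 h (adjusted p 1.78e-12, SE 0.11).

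Most of the LTBP2 rise in MYC-ER cells came after 8 h, with 1.31 added between 8 and 24 h (adjusted p 5.86e-10). Parental LTBP2 rose by 0.37, 0.73 and 0.70 at 8, 24 and 48 h (adjusted p 0.00938, 1.28e-05 and 2.99e-05). Without parental 0 h replicate 3 the 8 h value was 0.28 (adjusted p 0.0513). The interaction was 0.11 at 8 h (95% interval -0.18 to 0.39), 1.05 at 24 h (adjusted p 2.52e-06, SE 0.15) and 1.27 at 48 h (adjusted p 4.52e-07, SE 0.15). MYC-ER cells stayed below parental cells at every time, by 3.80-fold at 0 h and 1.58-fold at 48 h.

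TGFBR2 (ENSG00000163513.18, chr3:30606502-30694142, plus strand, GRCh38), the type II receptor for TGF-beta ligands, moved in opposite directions in the lines. MYC-ER cells had 179, 182 and 166 CPM at 0 h, 142, 144 and 140 at 8 h, 88.1, 81.9 and 82.8 at 24 h, and 105, 104 and 105 at 48 h. Parental cells had 107, 135 and 106 CPM at 0 h, 134, 135 and 132 at 8 h, 169, 167 and 178 at 24 h, and 147, 154 and 163 at 48 h. The MYC-ER groups did not overlap one another, and in parental cells only the 8 h group overlapped 0 h. TGFBR2 fell in MYC-ER cells by 0.31 at 8 h (adjusted p 0.000405, SE 0.068), 1.06 at 24 h (adjusted p 1.03e-11, SE 0.069) and 0.75 at 48 h (adjusted p 9.41e-09, SE 0.068).

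In parental cells TGFBR2 rose by 0.20, 0.56 and 0.42 (adjusted p 0.0275, 2.97e-06 and 7.41e-05). The 8 h value was lost without any of 5 libraries, the lowest being 0.15 without parental 0 h replicate 1 (adjusted p 0.162) or replicate 3 (adjusted p 0.127); the others were parental 8 h replicates 1, 2 and 3 (adjusted p 0.0566, 0.0732 and 0.0529). The interaction was -0.51 at 8 h (adjusted p 0.000101, SE 0.096), -1.62 at 24 h (adjusted p 5.37e-12, SE 0.097) and -1.16 at 48 h (adjusted p 3.65e-09, SE 0.097). At 0 h MYC-ER cells had 1.51-fold more TGFBR2 than parental cells and at 24 h 2.03-fold less.

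SMAD3 (ENSG00000166949.16, chr15:67063763-67195195, plus strand, GRCh38), which carries the signal of activin and TGF-beta receptors to the nucleus, changed little. Its MYC-ER level was 38.8, 39.2 and 38.2 CPM at 0 h, 43.6, 46.2 and 48.8 at 8 h, 31.2, 30.9 and 32.3 at 24 h, and 42.7, 42.3 and 43.8 at 48 h. The parental level was 37.0, 40.9 and 33.5 CPM at 0 h, 53.1, 52.8 and 56.9 at 8 h, 56.2, 52.3 and 54.4 at 24 h, and 45.8, 48.3 and 50.6 at 48 h. No exposed group overlapped the 0 h group of its line. In MYC-ER cells it rose by 0.25 at 8 h (adjusted p 0.00071, SE 0.060), fell by 0.30 at 24 h (adjusted p 0.000158, SE 0.060) and stood 0.15 above 0 h at 48 h (adjusted p 0.047). With upper-quartile scaling the 8 h value was 0.12 (adjusted p 0.0576). The 48 h call was lost in 17 of the 24 fits that each left out 1 library, with adjusted p of 0.0519 to 0.138 in those fits.

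Parental SMAD3 rose by 0.55, 0.55 and 0.38 at 8, 24 and 48 h (adjusted p 1.49e-06, 9.48e-07 and 5.30e-05). The interaction was -0.29 at 8 h (adjusted p 0.0053), -0.85 at 24 h (adjusted p 1.97e-08) and -0.23 after 48 h (adjusted p 0.0321). The 48 h value was lost in 7 of the 24 fits that left out 1 library, was -0.12 with library size alone (adjusted p 0.323) and was 0.01 once GC and length trends were removed (adjusted p 0.889). The line difference at 48 h, -0.17 (adjusted p 0.0202), was likewise lost with library size alone (-0.02, adjusted p 0.773). It was lost too without MYC-ER 48 h replicate 1 (-0.16, adjusted p 0.0519) or 2 (-0.16, adjusted p 0.0622) or parental 48 h replicate 3 (-0.13, adjusted p 0.0955). At 0 h the difference of 0.06 between the lines passed in opposite directions in other fits, at 0.13 without parental 0 h replicate 2 (adjusted p 0.0341) and at -0.16 once GC and length trends were removed (adjusted p 0.00181).

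SMAD7 (ENSG00000101665.9, chr18:48919853-48952052, minus strand, GRCh38), the inhibitory SMAD that blocks the type I receptor, fell in MYC-ER cells at 24 and 48 h, and by a smaller step at 8 h that not every fit called. Its MYC-ER level was 21.0, 18.3 and 19.1 CPM at 0 h, 16.5, 17.5 and 17.2 at 8 h, 14.2, 13.3 and 12.8 at 24 h, and 12.7, 13.4 and 13.2 at 48 h. Parental cells had 21.9, 25.6 and 22.8 CPM at 0 h, 21.5, 20.4 and 20 at 8 h, 20.9, 18.2 and 21.2 at 24 h, and 19.2, 23.4 and 23.2 at 48 h. All exposed MYC-ER libraries lay below their 0 h libraries, whereas parental 48 h overlapped parental 0 h. The MYC-ER change was -0.54 at 24 h (adjusted p 4.25e-06, SE 0.080) and -0.57 at 48 h (adjusted p 4.13e-06, SE 0.080). The 8 h value of -0.19 passed narrowly (adjusted p 0.041, SE 0.080) and was lost in 6 of the 24 fits that left out 1 library, at -0.13 without MYC-ER 0 h replicate 1 (adjusted p 0.197). It was lost too with DESeq2's size factors (-0.15, adjusted p 0.101), DESeq2's Wald test (-0.15, adjusted p 0.097), no filter (-0.18, adjusted p 0.0859) and only the groups compared (-0.16, adjusted p 0.0544).

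In parental cells SMAD7 passed at 24 h alone, at -0.22 (adjusted p 0.0276, SE 0.079), and with the GC trend removed this was 0.03 (adjusted p 0.814). It was lost without parental 0 h replicate 2 (-0.15, adjusted p 0.131) or 3 (-0.22, adjusted p 0.0524), parental 8 h replicate 1 (-0.20, adjusted p 0.0562) or parental 24 h replicate 2 (-0.16, adjusted p 0.154). The 8 h value of -0.19 (adjusted p 0.0824) passed without parental 48 h replicate 1 (adjusted p 0.0484). The interaction was -0.00 at 8 h (95% interval -0.22 to 0.22), -0.32 at 24 h (adjusted p 0.0212) and -0.48 after 48 h (adjusted p 0.00157). The 24 h interaction was lost without any of 5 libraries, among them MYC-ER 0 h replicate 1 (-0.26, adjusted p 0.0697). Parental cells held more SMAD7 than MYC-ER cells at every time, by 1.2-fold at 0 h and 1.67-fold at 48 h, although the 0 h difference was -0.04 with the GC trend removed (adjusted p 0.715).

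SKIL (ENSG00000136603.14, chr3:170357678-170396835, plus strand, GRCh38) encodes SnoN, a co-repressor that binds SMADs and is induced by TGF-beta and activin. In MYC-ER cells it stood at 9.50, 9.92 and 10.1 CPM at 0 h, 25.5, 29.5 and 25.9 at 8 h, 14.0, 12.9 and 13.1 at 24 h, and 18.8, 17.5 and 19.0 at 48 h. In parental cells it stood at 23.6, 35.8 and 18.3 CPM at 0 h, 34.8, 36.4 and 30.1 at 8 h, 44.2, 39.3 and 42.4 at 24 h, and 44.2, 40.8 and 45.0 at 48 h. The MYC-ER groups were separate from one another, and in parental cells replicate 2 at 0 h lay among the 8 h libraries. SKIL rose in MYC-ER cells by 1.46 at 8 h (edgeR adjusted p 1.32e-08, SE 0.15), 0.44 at 24 h (adjusted p 0.0133, SE 0.15) and 0.91 at 48 h (adjusted p 2.64e-05, SE 0.15). It fell between 8 and 24 h by 1.02 (adjusted p 3.49e-06) and rose again by 0.47 from 24 to 48 h (adjusted p 0.00908).

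Parental SKIL changes of 0.38, 0.70 and 0.74 at 8, 24 and 48 h passed the threshold (adjusted p 0.0479, 0.000485 and 0.000311). The SKIL transcript has 33.4% G and C, the lowest of the 10 genes. With the GC trend alone removed the 8 h value was 0.06 (adjusted p 0.653), while the 24 and 48 h calls stayed. With GC and length trends removed the values were 0.01, 0.13 and 0.14 (adjusted p 0.903, 0.118 and 0.097). The 8 h call was lost in 22 of the 24 fits that left out 1 library, at 0.19 without parental 0 h replicate 3 (adjusted p 0.275). MYC-ER cells had 2.63-fold less SKIL than parental cells at 0 h (-1.40, adjusted p 3.02e-08), and 3.15-fold less at 24 h. The difference of -0.32 at 8 h did not pass (adjusted p 0.0698), but it passed without parental 0 h replicate 2 (adjusted p 0.00257), parental 0 h replicate 3 (-0.31, adjusted p 0.0209) or parental 8 h replicate 3 (-0.40, adjusted p 0.0479), and after removal of the GC trend (-0.33, adjusted p 0.00113).

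The SKIL interaction was 1.07 at 8 h (adjusted p 0.000116, SE 0.20). At 24 h it was -0.26 (95% interval -0.66 to 0.14), or -0.57 without parental 0 h replicate 2 (adjusted p 0.000593) and 0.27 once GC and length trends were removed (adjusted p 0.0129). At 48 h it was 0.16 (95% interval -0.24 to 0.56), or 0.65 after removal of the GC trend (adjusted p 6.99e-05).

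TGFBI (ENSG00000120708.17, chr5:136028895-136063818, plus strand, GRCh38), named for its induction by TGF-beta, encodes an extracellular matrix protein and was the most abundant of the 10 genes per kilobase in all 8 groups. MYC-ER cells had 11418, 11614 and 11700 CPM at 0 h, 6307, 5947 and 6452 at 8 h, 3667, 3613 and 3624 at 24 h, and 3863, 3693 and 4178 at 48 h. Parental cells had 4368, 4142 and 4325 CPM at 0 h, 4149, 3797 and 3872 at 8 h, 3655, 3521 and 3718 at 24 h, and 3258, 3512 and 3589 at 48 h. The MYC-ER 0 h libraries stood above all others. The lines overlapped at 24 h, whereas at 48 h every MYC-ER library lay above the parental ones. TGFBI fell in MYC-ER cells by 0.89 at 8 h (adjusted p 7.98e-12, SE 0.058), 1.67 at 24 h (adjusted p 2.81e-16, SE 0.059) and 1.57 at 48 h (adjusted p 2.98e-15, SE 0.059), a 3.19-fold drop at 24 h.

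Parental TGFBI changed by -0.12 at 8 h (95% interval -0.23 to -0.01, adjusted p 0.127), and fell by 0.24 at 24 h and 0.31 at 48 h (adjusted p 0.00204 and 0.000223). Both were lost with only the groups compared (-0.23 and -0.30, adjusted p 0.0799 and 0.0739). The interaction was -0.77, -1.43 and -1.26 at 8, 24 and 48 h (adjusted p 4.33e-08, 2.45e-12 and 6.64e-11). MYC-ER cells had 2.71-fold more TGFBI at 0 h and 1.58-fold more at 8 h than parental cells. At 24 h the difference was 0.00 with a 95% interval of -0.11 to 0.11, although it was 0.13 with library size alone (adjusted p 0.032). The 48 h difference of 0.18 (adjusted p 0.011) was lost without MYC-ER 48 h replicate 3 (0.13, adjusted p 0.0961) or parental 48 h replicate 1 (0.14, adjusted p 0.0598).

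The fit was repeated after removing each library's trend with transcript GC content, and with GC content and then length. In parental cells at 24 h, 9 of the 10 genes passed without these corrections and 5 with GC and length trends removed. INHBA rose in parental cells in both corrected fits, by 2.32 and 2.23 at 24 h, and TGFBR2 by 0.52 and 0.45. In MYC-ER cells at 24 h INHBA stood at 2.94 and 3.02, TGFB1 at 1.72 and 1.69, and TGFBI at -1.62 and -1.54 under the same corrections.

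**Figure D3:**
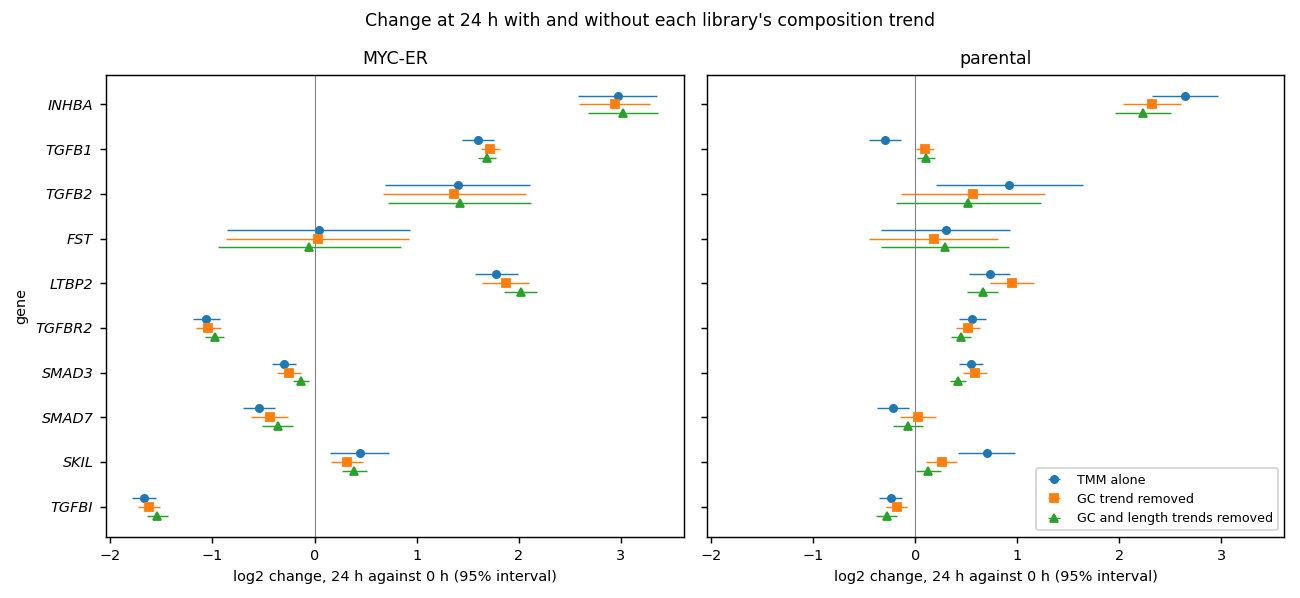
Log2 change at 24 h against 0 h (x axis, with 95% intervals) for the 10 genes in MYC-ER (left) and parental (right) cells, with TMM scaling alone (blue circles), after removal of the GC trend (orange squares) and of the GC and length trends (green triangles). In parental cells TGFB1 moves from -0.30 to 0.10 and SKIL from 0.70 to 0.26 and 0.13, while the MYC-ER values lie close together.

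Other genes of the pathway were read from 5 lists that exclude the 10 genes and were chosen with earlier results of these data known. Of 12 other ligand genes 5 were expressed enough to be tested. In MYC-ER cells 2 rose and 2 fell at 8 h and at 24 h, and 2 rose and 1 fell at 48 h, where the shares over all genes were 32.2% and 35.4%, 30.4% and 31.2%, and 23.4% and 20.7%. TGFB3, the third TGF-beta ligand, went from 0.968 ± 0.158 CPM (SD, n = 3) at 0 h to 2.33 ± 0.0484 at 8 h and 3.80 ± 0.174 at 24 h (log2 change 1.97, adjusted p 2.78e-12). GDF11, a ligand of activin receptors, went from 1.54 ± 0.276 to 6.22 ± 0.106 CPM at 24 h (2.01, adjusted p 4.90e-12). Neither passed in parental cells at any time. MSTN, myostatin, fell in MYC-ER cells from 1.93 ± 0.319 to 0.419 ± 0.183 CPM at 8 h (adjusted p 1.36e-06). INHA, the inhibin alpha subunit, fell at 8 h in both lines, by 0.90 in MYC-ER and 0.87 in parental cells (adjusted p 0.00206 and 0.00759), and rose in MYC-ER cells at 48 h, from 1.37 ± 0.0266 to 2.81 ± 0.115 CPM (1.04, adjusted p 0.0009).

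Of 13 tested carriers, activators and antagonists outside the cell, 6 rose and 6 fell in MYC-ER cells at 8 h, with a median log2 change of -0.35 (32.2% and 35.4% of all genes). THBS1, thrombospondin 1, an activator of latent TGF-beta, rose from 5.53 ± 0.39 to 92.4 ± 2.15 CPM at 8 h (4.06, SE 0.11, adjusted p 6.32e-18) and stood at 21.1 CPM at 24 h. LTBP1, which anchors latent TGF-beta in the matrix, rose from 68.8 ± 0.934 to 328 ± 4.99 CPM (2.26, adjusted p 1.79e-15). In parental cells at 0 h THBS1 stood at 121 ± 23.3 and LTBP1 at 249 ± 37.8 CPM, and both rose less there at 8 h (interactions of 3.17 and 1.99, adjusted p 7.28e-14 and 8.01e-12). The proteoglycan genes DCN and BGN, whose products bind TGF-beta, fell in MYC-ER cells at 24 h. DCN went from 157 ± 0.858 to 21.5 ± 0.729 CPM (-2.87, adjusted p 1.11e-17) and BGN from 3.38 ± 0.343 to 1.14 ± 0.119. Both also passed as lower in parental cells at 24 h, with log2 changes of -0.44 for DCN and -0.66 for BGN.

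Of 8 tested receptors and co-receptors, 2 rose and 4 fell in MYC-ER cells at each time, against 32.2% and 35.4% of all genes at 8 h, 30.4% and 31.2% at 24 h and 23.4% and 20.7% at 48 h. ENG, endoglin, a TGF-beta co-receptor, rose from 13.5 ± 0.864 to 116 ± 2.82 CPM at 8 h (3.11, adjusted p 2.07e-18), and none of its parental changes passed. BAMBI, a receptor decoy, rose from 4.27 ± 0.132 to 24.9 ± 1.04 CPM at 8 h in MYC-ER cells (2.54, adjusted p 9.00e-18) and fell by 0.30 in parental cells (adjusted p 0.00237). TGFBR3, betaglycan, presents TGF-beta2 to its receptors. In MYC-ER cells it fell from 141 ± 6 to 8.31 ± 0.148 CPM at 8 h (-4.08, adjusted p 6.07e-16). By 48 h it was back at 56.9 ± 0.795 CPM (-1.31, adjusted p 5.28e-08). ACVR2B, an activin type II receptor, fell in MYC-ER cells at 8 h, from 9.75 ± 0.562 to 4.22 ± 0.543 CPM (adjusted p 0.00796).

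Of 17 SMADs and SMAD regulators, 4 rose and 4 fell in MYC-ER cells at 8 h (32.2% and 35.4% of all genes), and 2 rose and 8 fell at 48 h (23.4% and 20.7%). In parental cells 9, 12 and 10 rose at 8, 24 and 48 h and 2, 3 and 1 fell, where 15.0%, 21.2% and 20.4% of all genes rose and 16.0%, 21.7% and 20.1% fell. PMEPA1, an inhibitor that SMADs induce, rose in MYC-ER cells at 8 h from 12.5 ± 0.659 to 52.5 ± 0.819 CPM (2.07, adjusted p 9.00e-16) and stood at 14.1 ± 0.967 at 24 h. TGIF1, a SMAD co-repressor, rose from 21.8 ± 0.895 to 49.8 ± 0.914 CPM (1.19, adjusted p 4.52e-14). SMAD6, the inhibitory SMAD of the BMP branch, fell from 13.5 ± 1.28 to 2.72 ± 0.392 CPM (-2.31, adjusted p 2.70e-14) and also fell in parental cells (-0.94, adjusted p 1.42e-06). NEDD4L, a ubiquitin ligase that targets activated SMADs, fell in MYC-ER cells at 8 h to 51.1 ± 1.41 CPM from 104 ± 1.17 (-1.02, adjusted p 7.74e-14).

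Of 29 tested TGF-beta target genes, 18 rose and 9 fell in MYC-ER cells at 8 h with a median log2 change of 1.21, 16 rose and 7 fell at 24 h (median 1.07), and 20 rose and 7 fell at 48 h (median 0.72). Over all genes 32.2% rose and 35.4% fell at 8 h, 30.4% and 31.2% at 24 h, and 23.4% and 20.7% at 48 h. Because the target list was chosen with earlier results of these data known, its counts beside these shares are a description, not a test. In parental cells 13 rose and 6 fell at 8 h (median 0.23), 14 and 7 at 24 h (median 0.28) and 12 and 8 at 48 h (median 0.13), against 15.0% and 16.0%, 21.2% and 21.7%, and 20.4% and 20.1% of all genes. At 0 h MYC-ER cells were below parental cells in 22 of the 29 and above them in 4 (median -1.25), where 32.7% of all genes were lower and 31.6% higher. The median over all genes in MYC-ER cells was -0.10 at 8 h and 0.03 at 48 h, and other scalings moved it to -0.24 (upper quartile) and 0.19 (library size alone). MMP9, a secreted protease, had 0.00779 ± 0.0135 CPM at 0 h in MYC-ER cells, below the limit of 3 counts, and 4.30 ± 0.859 at 8 h (adjusted p 9.39e-14). In parental cells MMP9 stood at 1.06 ± 0.176 CPM at 0 h, 3.89 ± 0.961 at 8 h and 6.46 ± 0.528 at 24 h. SNAI1, a transcription factor of epithelial to mesenchymal transition, had 0.0285 ± 0.0353 CPM at 0 h in MYC-ER cells and 1.14 ± 0.138 at 8 h (adjusted p 2.61e-08). Parental SNAI1 was at 0.137 ± 0.0442 CPM at 0 h and 0.252 ± 0.0512 at 8 h. Its relative SNAI2 fell in MYC-ER cells, like TGFBI, from 205 ± 2.04 to 44.3 ± 1.54 CPM at 24 h (-2.21, adjusted p 8.29e-21). Parental SNAI2 was at 101 ± 4.88 CPM at 0 h and 122 ± 1.3 at 24 h. COL7A1, an anchoring collagen of basement membrane, fell in MYC-ER cells from 1018.5 ± 4.95 to 236 ± 18.9 CPM at 8 h (-2.11, adjusted p 8.19e-15). In parental cells COL7A1 was also lower at 8 h, at 331 ± 18.8 CPM against 486 ± 52.2 at 0 h. The summed level of the 7 fibroblast markers was 213 to 221 CPM at 0 h and 54.8 to 59.4 at 8 h in MYC-ER cells. COL1A2, PDGFRA and THY1 were at 0 in both groups. Most of the sum was COL1A1, which ran from 53.5 to 220 CPM over all libraries, while no other of the 7 exceeded 1.65. The part of this sum in these results was not tested.

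**Figure D4:**
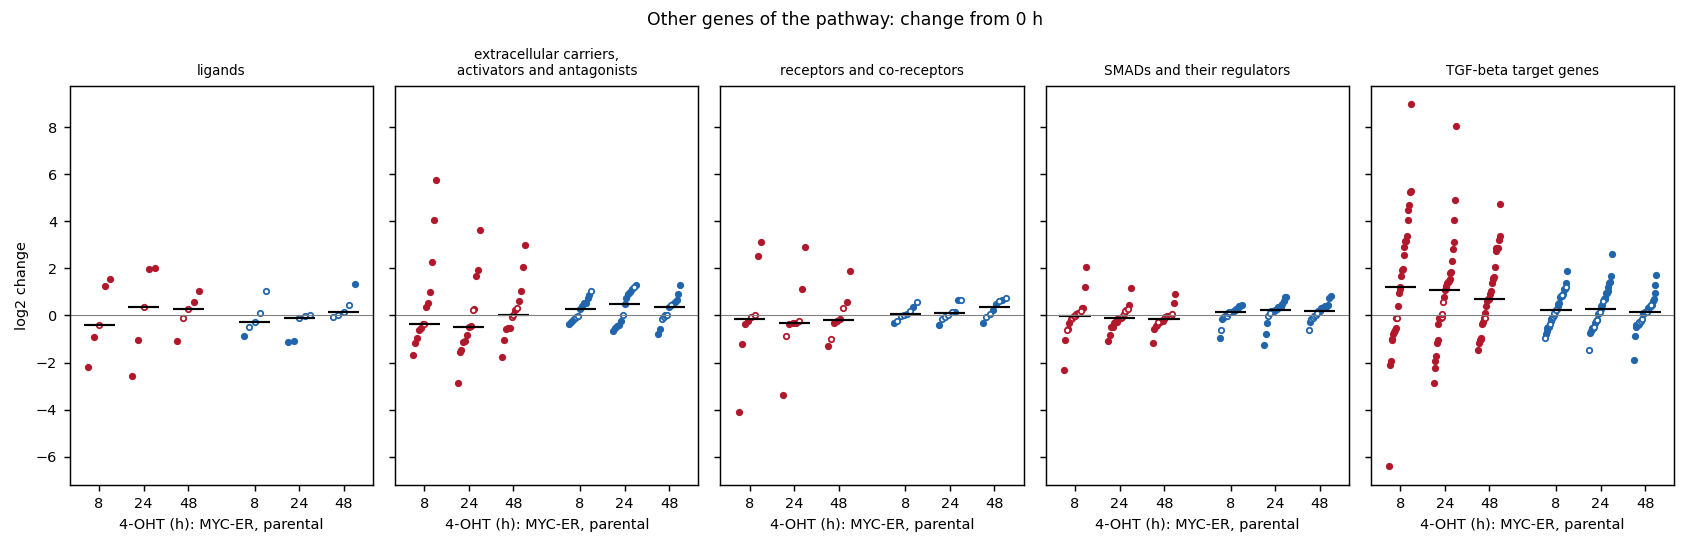
Log2 change from 0 h (y axis) of the other pathway genes in 5 lists, at 8, 24 and 48 h of 4-OHT in MYC-ER (red) and parental (blue) cells; each point is a gene, filled points passed an adjusted p of 0.05 and bars are list medians. The target genes have the highest medians, 1.21, 1.07 and 0.72 in MYC-ER cells, and the parental points lie closer to 0. The lists were chosen with earlier results of these data known.

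Genes with the most similar course were found by the root mean square difference of centred log2 CPM over the 8 group means, among 10495 genes. Nearest to INHBA were LIPG at 0.623, IRAK2 at 0.677 and INSC at 0.740. The measure grows with a gene's span, which was 6.37 for INHBA, 2.1 for TGFB1 and 1.06 for TGFBR2, so its values are not compared between genes. Nearest to TGFB1 were PRKAR1B at 0.0750, EMSLR at 0.105 and PLOD1 at 0.117, and to TGFBR2 MAPK6 at 0.0731, TAX1BP1 at 0.103 and STAM2 at 0.122. TGFB2 was nearest to HOMER1 (0.146), SKIL to MCTP1 (0.136) and TGFBI to DGKD (0.194). LTBP2 was nearest to LGALS1 (0.218), and FST to SPRR1B (0.399) and SPRR1A (0.445). These values describe 8 points that share libraries, and SMAD3 and SMAD7, whose group means spanned less than 1 on the log2 scale, were not matched.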

How the data were processed

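RNA was sequenced from 24 libraries, 3 in each of 8 groups of line and exposure time. The values are gene counts deposited by the authors, not normalized. The submitters' processing notes name Trimmomatic 0.39, STAR, StringTie 2.1.3b and GRCh38. The annotation release, the use of strand and how counts were derived are not given in the sources used here, so limits of 3 counts are approximate.

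Genes were kept by edgeR's filterByExpr, scaled by TMM and fitted over all 8 groups with edgeR 4.0.16 (R 4.3.3). Contrasts used the two-sided quasi-likelihood F test with Benjamini-Hochberg adjustment over 22158 genes and a threshold of 0.05. Log2 CPM values used a prior count of 2, and the fold changes came from the fit at edgeR's default setting. GC content and transcript length came from GENCODE 29, and their trends were removed per library by lowess with a span of 0.3. The procedure was tested on simulated data. The genes and lists were chosen with earlier results of these data known. In each list the named genes were the top 2 by rise and the top 2 by fall in MYC-ER cells at any exposure time, among genes past the threshold with at least 1 CPM in the highest group. The 95% intervals are normal approximations from the standard error. Alternatives were DESeq2 1.42.0 (size factors and Wald test), library size alone, upper-quartile scaling, no filter, at least 10 counts in every library, GC and length trends removed, only the groups compared, a replicate block, and leaving out each library in turn. Replicate numbers did not pair the samples.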

Additional observations from a re-analysis of the deposited data

Results flagged for a closer look

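The following values are differences in response, the log2 change in MYC-ER cells minus that in parental cells, that passed the interaction test in edgeR (adjusted p under 0.05), which is also true of 55.2%, 54.5% and 45.0% of all genes after 8, 24 and 48 h. At 8 h they were 4.35 for INHBA, 2.38 for TGFB1, 1.07 for SKIL, -0.29 for SMAD3, -0.51 for TGFBR2 and -0.77 for TGFBI. After 24 h they were 1.90 for TGFB1, 1.05 for LTBP2, -0.32 for SMAD7, -0.85 for SMAD3, -1.43 for TGFBI and -1.62 for TGFBR2. After 48 h they were 1.33 for INHBA, 1.27 for LTBP2, 0.85 for TGFB1, -0.23 for SMAD3, -0.48 for SMAD7, -1.16 for TGFBR2 and -1.26 for TGFBI.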

How the results depend on the processing

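Of 148 single-gene results, 146 kept their direction and side of the threshold with DESeq2's Wald test, 139 with library size alone, 130 with the GC trend removed and 127 with GC and length trends removed. Of 3552 values with 1 library left out, 3425 did. The number of genes past the threshold in parental cells at 8 h was 6, against 2 with only the groups compared and 2 to 6 with 1 library left out. At 24 h it was 9, against 5 with GC and length trends removed and 5 with only the groups compared. With only the groups compared, calls over all genes in parental cells were 1452 instead of 6870 after 8 h, 4923 instead of 9503 after 24 h and 3274 instead of 8978 after 48 h. Replicates of parental 0 h differed most, with a chi-square per degree of freedom of 234, 159 and 261 between pairs of libraries. In the other groups it was 8.45 to 63.3. The main fit shares its estimate of the spread over all groups. The cause of the lower number of calls was not tested.

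With a replicate block 145 results were unchanged, and 3 lost their call: SMAD7 in MYC-ER cells at 8 h (-0.19, adjusted p 0.053), SMAD3 in MYC-ER cells at 48 h (0.15, adjusted p 0.0557) and TGFB2 in parental cells at 24 h (0.92, adjusted p 0.0554). Over all tested genes, the deviations of same-numbered samples from their group means correlated at -0.034 to 0.052.

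Some values changed sign, and the cause was not tested. With the GC trend removed, with GC and length trends removed, and with the GC trend removed and a replicate block, TGFB1 in parental cells was 0.01, 0.01 and 0.01 at 8 h, 0.10, 0.11 and 0.10 at 24 h, and 0.06, 0.08 and 0.06 at 48 h. Under the same settings TGFB2 between the lines at 0 h was -0.15, -0.24 and -0.14, the SKIL interaction at 24 h 0.07, 0.27 and 0.06, and SMAD7 in parental cells at 48 h 0.15, 0.04 and 0.15. With the GC trend removed, without and with the block, SMAD7 in parental cells was 0.00 and 0.01 at 8 h and 0.03 and 0.04 at 24 h, and the LTBP2 interaction at 8 h -0.11 and -0.12 (-0.01 with library size alone). With GC and length trends removed SMAD3 between the lines at 0 h was -0.16, TGFBR2 between the lines at 8 h -0.00, the SMAD3 interaction at 48 h 0.01 and FST in MYC-ER cells at 24 h -0.05 (-0.00 with upper-quartile scaling). TGFBI between the lines at 24 h was -0.01 with no filter. The SMAD7 interaction at 8 h was 0.02 with DESeq2's size factors and its Wald test, 0.00 with no filter and 0.01 with only the groups compared.

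With 1 library left out, values that changed sign ran from -0.18 to 0.25 for FST in MYC-ER cells at 24 h, -0.50 to 0.38 for TGFB2 in MYC-ER cells at 48 h, -0.17 to 0.33 for TGFB2 between the lines at 0 h, -0.02 to 0.02 for TGFBI between the lines at 24 h, -0.33 to 0.50 for the FST interaction at 8 h, -0.07 to 0.06 for the SMAD7 interaction at 8 h and -0.14 to 0.34 for the SKIL interaction at 48 h. FST could not be fitted with at least 10 counts required in every library. Depth limits FST and TGFB2, at 5 to 84 counts in MYC-ER cells.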
